A study of Mus musculus with 36 samples.

Results

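The bone morphogenetic protein (BMP) genes described here are 9 in number, out of 30125 genes that the 3 deposited expression tables hold between them. They are the ligands Bmp2, Bmp4, Bmp6 and Bmp7, the receptors Bmpr1a, Bmpr1b and Bmpr2, the secreted BMP-binding protein Bmper, and Tmem100. Each was found in a table by the Ensembl identifier that belongs to its symbol. All 9 were present in the table of wild-type cells (25760 genes), the table of β-catenin removal (26863 genes) and the table of Tcf/Lef removal (26472 genes), and all 9 passed the filter on low values in each.

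BMPs are secreted ligands that bring type I receptors, such as Bmpr1a and Bmpr1b, together with type II receptors, such as Bmpr2, upon which Smad proteins carry the signal to the nucleus. Extracellular proteins that bind the ligands, Bmper among them, limit or shape that signal, and feedback genes such as the Id genes, Smad6 and Bambi respond to it. In the developing kidney, Bmp7 is known for maintaining nephron progenitor cells (NPCs) and for preparing them to be induced, and Bmp4 for its expression by stroma around the ureter.

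The study asked how the dose of a Wnt signal sets the state of NPCs, and whether β-catenin and its Tcf/Lef DNA-binding partners carry that signal. NPCs were isolated from E16.5 kidneys of Swiss Webster or C57Bl/6 embryos by magnetic depletion of other cells. They were grown in nephron progenitor expansion medium (NPEM), in which the Wnt agonist CHIR99021 (CHIR), an inhibitor of GSK3β, was absent (no CHIR), at 1.25 µM (low CHIR, in which NPCs self-renew) or at 5 µM (high CHIR, in which they differentiate). Wild-type NPCs were cultured for 24 h at each dose, with 3 libraries per dose. For β-catenin removal, NPCs with β-catenin c/c conditional alleles were transfected with or without Cre mRNA (Cre and no Cre), and Cas9-expressing NPCs received guides to Ctnnb1, the gene of β-catenin, or a guide to GFP (Ctnnb1 sgRNA and GFP sgRNA), with 2 libraries per group and dose. For Tcf/Lef removal, Cas9-expressing NPCs received guides to Tcf7l1, Tcf7l2, Tcf7 and Lef1 together (QKO) or the guide to GFP, which gave 3 control and 2 QKO libraries in low CHIR and 3 of each in high CHIR. In both knockout experiments mCherry mRNA was transfected along with the rest and mCherry+ cells were sorted, so the sort took transfected cells, edited or not. All NPCs were seeded in low CHIR. The knockout period, also in low CHIR, was 24 h for β-catenin and 48 h for QKO. Knockout cells and their controls then had 24 h in low or high CHIR.

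By the study's reagent list, NPEM itself is made up with recombinant BMP7 and BMP4 and with LDN-193189, an inhibitor of BMP type I receptors, and all groups were grown in NPEM. The values below are therefore transcript levels in cells that were already given BMP protein and a receptor inhibitor, and none of them measures BMP activity. Libraries were bulk RNA, so fewer cells of a type and less RNA per cell cannot be told apart. Nothing in the sources used here ties each library to a separate litter, and p-values measure the spread between these libraries only.

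Depth was 13651129 to 76071568 reads on genes per library in wild-type NPCs, 14537850 to 27838106 in β-catenin removal and 13089780 to 20152719 in Tcf/Lef removal. The 6 markers of self-renewing NPCs (Six2, Cited1, Eya1, Osr1, Meox1 and Meox2) summed to 9567 to 15140 normalized counts in wild-type low CHIR and to 227 to 292 in high CHIR, while 6 markers of induced cells (Wnt4, Lef1, Jag1, Fgf8, Lhx1 and Pax8) summed to 2979 to 5776 and to 24390 to 33700. The Ctnnb1 level in the Ctnnb1 sgRNA libraries averaged 1346 in low and 1450 in high CHIR against 2959 and 2666 with the GFP sgRNA. It does not check the Cre libraries, where reads over the whole gene averaged 2418 with Cre and 2315 without in high CHIR. Among wild-type libraries, replicate 3 in high CHIR stood apart from its group. There Bmp4 was at 5523 and Msx1 at 18058 normalized counts, against at most 363 and 978 in the other 2. Replicate 1 at no CHIR was by far the deepest, with 76071568 reads on genes against 13651129 and 17371966 in the other 2. Its stromal markers summed to 27280 normalized counts against 6269 and 14650. In the QKO experiment replicate 1 held the most RNA of stromal markers in all 4 groups (7335 normalized counts over 8 markers in QKO high CHIR, against 595 and 2399 in the other 2 libraries). Replicate 1 of the high CHIR controls in that experiment had 2840 normalized counts over 7 blood markers, mostly Lyz2, against 87.0 and 59.5 in the other 2. Values without wild-type high CHIR replicate 3 are given beside the results that it moved most. So are values without replicate 1 of QKO or of its controls in high CHIR.

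In the GENCODE vM21 annotation of GRCm38, the ligand genes are Bmp2 (ENSMUSG00000027358, chr2:133552159-133562885, plus strand), Bmp4 (ENSMUSG00000021835, chr14:46383520-46390669, minus strand), Bmp6 (ENSMUSG00000039004, chr13:38345107-38500302, plus strand) and Bmp7 (ENSMUSG00000008999, chr2:172868012-172940321, minus strand). The receptor genes are Bmpr1a (ENSMUSG00000021796, chr14:34410734-34503341, minus strand), Bmpr1b (ENSMUSG00000052430, chr3:141837136-142169425, minus strand) and Bmpr2 (ENSMUSG00000067336, chr1:59763400-59879014, plus strand). Bmper (ENSMUSG00000031963) lies at chr9:23223076-23485200 and Tmem100 (ENSMUSG00000069763) at chr11:90030348-90036508, both on the plus strand. Bmp4, Bmp6, Bmpr1a and Bmpr2 overlap other annotated genes in part. The authors counted unambiguous reads only and do not state that strand was used, so reads in the shared stretches may have been left out.

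RefSeq promoters of GRCm38.p6, each 250 bases before a start and 50 from it, were at hand for 6 of the 9 genes, with 8 starts. The 3 printed below belong to the genes of this set whose levels differed most between knockout and control in high CHIR, among those with a promoter at hand: Bmper and Bmp6, which were higher, and Bmpr1b, which was lower. Capitals mark a 6-letter form of the core that Tcf/Lef factors bind, CTTTGA or, on the other strand, TCAAAG.
Bmper, chr9:23222826-23223125, plus strand: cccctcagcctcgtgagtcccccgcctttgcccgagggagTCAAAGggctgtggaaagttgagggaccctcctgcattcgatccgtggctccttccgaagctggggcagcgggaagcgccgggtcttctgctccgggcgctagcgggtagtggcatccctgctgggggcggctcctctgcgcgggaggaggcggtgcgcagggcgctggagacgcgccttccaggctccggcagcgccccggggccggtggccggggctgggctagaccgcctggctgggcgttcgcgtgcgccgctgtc
Bmp6, chr13:38345466-38345765, plus strand: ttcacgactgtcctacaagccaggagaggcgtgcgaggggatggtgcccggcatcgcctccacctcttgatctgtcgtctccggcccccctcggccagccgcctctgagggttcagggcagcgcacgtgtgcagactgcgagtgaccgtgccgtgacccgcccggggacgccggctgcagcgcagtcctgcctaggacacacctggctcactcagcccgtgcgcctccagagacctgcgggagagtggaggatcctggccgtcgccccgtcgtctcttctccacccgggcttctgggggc
Bmpr1b, chr3:141982215-141982514, minus strand: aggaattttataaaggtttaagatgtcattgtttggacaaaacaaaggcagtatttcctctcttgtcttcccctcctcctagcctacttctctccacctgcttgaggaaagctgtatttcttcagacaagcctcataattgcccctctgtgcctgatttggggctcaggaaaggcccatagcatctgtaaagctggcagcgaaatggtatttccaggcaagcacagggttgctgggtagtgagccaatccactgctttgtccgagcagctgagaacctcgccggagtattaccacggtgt

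The Bmper promoter held 1 core motif, whose first base lies at position −210 from the start. None of the other 7 starts (Bmp4, Bmp6, Bmpr1a, Bmpr2 and 3 of Bmpr1b) held this form within these windows. Of all 32851 RefSeq mouse promoters of this length, 16% did (5257). The Bmper and Bmp6 windows were rich in G and C (72.7% and 69.3%) with 31 and 27 CG pairs, against a median of 52.7% and 7 pairs over all promoters, while the printed Bmpr1b window had 48.3% and 5 pairs. A match is a description of the letters, and these windows hold no information on binding farther away. Only CTTTGA and TCAAAG were searched. Strings that differ by a letter, such as acaaag in the printed Bmpr1b window, were not counted, so other forms of the site may be present. Bmp2, Bmp7 and Tmem100 are named only.

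Per kb of exon, Bmper was the highest of the 9 genes in wild-type NPCs at no and low CHIR, and was among the lowest at high CHIR. At no CHIR Bmper had a mean of 2413 normalized counts per kb and Tmem100, a membrane protein known downstream of BMP signalling in endothelium, had 827. Bmp4 (251) and Bmpr1a (170) followed, then Bmpr2 (67.8), Bmp2 (26.7), Bmp7 (17.2), Bmp6 (15.1) and Bmpr1b (5.52). The ranges of Bmp2 and Bmp7 overlapped there, as did those of Bmp7 and Bmp6. At low CHIR the order began again with Bmper (1160 per kb) and Tmem100 (395), with Bmpr1a (171), Bmp4 (124) and Bmp2 (95.7) next, of which Bmp4 and Bmp2 overlapped. Bmpr2 (54.2) and Bmp7 (33.5) overlapped as well, and Bmpr1b (14.25) and Bmp6 (5.42) were lowest.

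At high CHIR the order of the levels per kb was different. Bmp7 reached a mean of 384 per kb with a range from 301 to 492, above every library of Bmpr1a (174 to 181). Bmp4 had the highest mean (904), but its range from 94.4 to 2457 was set by replicate 3. Bmpr1b (87.9), Bmp2 (82.2), Tmem100 (46.5), Bmper (46.2) and Bmpr2 (45.0) followed, and each of these neighbours overlapped in range with the next. Bmp6 was lowest at 5.05 per kb.

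**Figure D1:**
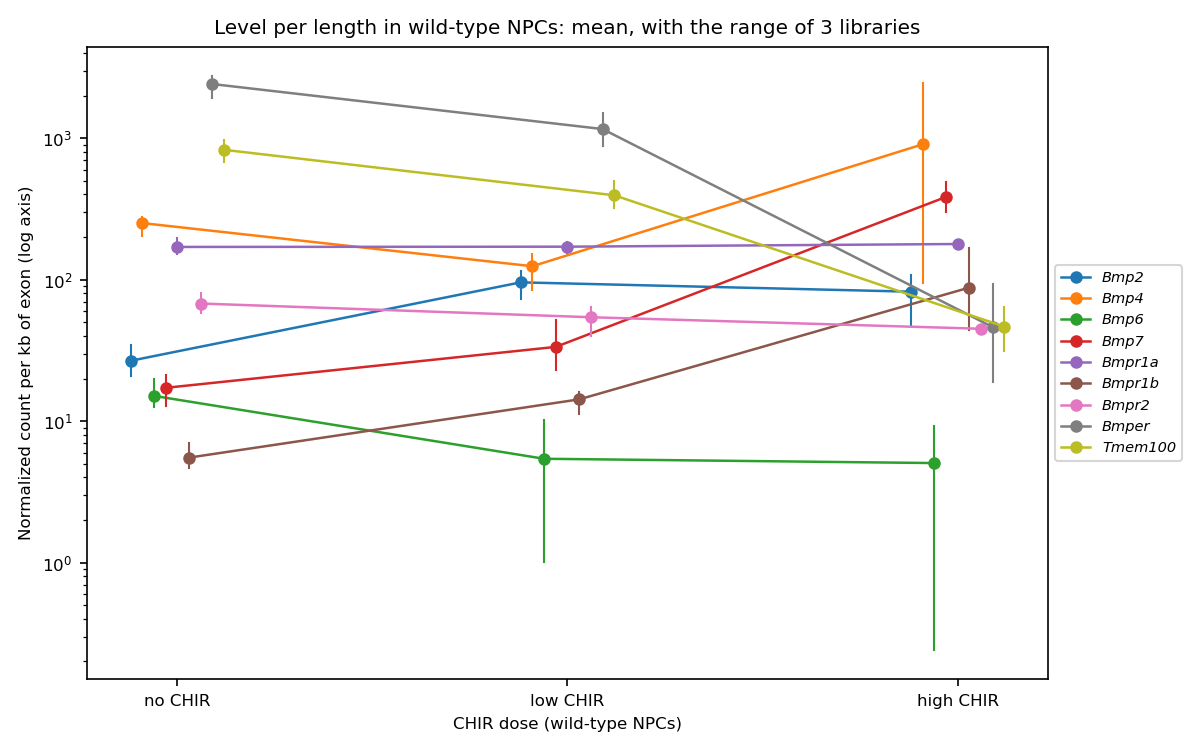
Normalized counts per kb of exon (log axis) of the 9 genes in wild-type NPCs at no, low and high CHIR, as means joined by lines, with vertical bars from the lowest to the highest of 3 libraries. Bmper falls from 2413 to 46.2 per kb and Bmp7 rises from 17.2 to 384, while Bmpr1a stays between 170 and 179.

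Wild-type NPCs in high CHIR had more Bmp7 and Bmpr1b and less Bmper and Tmem100 than those in low CHIR. These were the members called, 4 of 9, against 10.4% of the 17411 genes tested in that comparison (a gene counts as called where limma's adjusted p is below 0.05 and its log2 fold change is 0.5 or more, up or down). The median log2 fold change of the 9 was −0.24, against 0.01 over all genes. Without replicate 3 in high CHIR the count was again 4. Markers of other cell types also differed between these doses. Ureteric markers (6 of 8 in the table) summed to 616 to 930 normalized counts in low and 1715 to 5957 in high CHIR, and endothelial markers (8 of 8) to 209 to 422 and 692 to 1421, the latter mostly Tek and Flt1, with Tie1 at 0 in all 3 high CHIR libraries. Of the 5 endothelial markers tested, however, 1 was called higher and 1 lower. Stromal markers (8 of 8) summed to 9943 to 15780 in low and 3152 to 10580 in high CHIR. Blood markers (7 of 8) summed to 723 to 868 in low and 234 to 338 in high CHIR. Their part in the results of the 9 genes was not tested.

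Of the ligands, Bmp7 had the clearest rise with CHIR. It had 85.6, 51.2 and 70.4 normalized counts at no CHIR, 102, 209 and 92.2 at low CHIR, and 1443, 1978 and 1210 at high CHIR. All 3 high libraries lay above all others, and Bmp7 was 11.5-fold higher in high than in low CHIR (log2 fold change 3.58, SE 0.33, adjusted p 0.00014, limma). Low and no CHIR did not overlap either, but that difference missed the threshold (log2 fold change −0.88, adjusted p 0.155).

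Bmp2, a ligand known in bone and heart formation, had 123, 87.8 and 73.7 normalized counts at no CHIR, 409, 353 and 259 at low CHIR, and 326, 382 and 168 at high CHIR. Its libraries in low and high CHIR overlapped, and all of them lay above those with no CHIR. Bmp2 was 3.59-fold lower in no than in low CHIR (log2 fold change −1.84, SE 0.33, adjusted p 0.0159) and was the only member called there, 1 of 9 against 4.97% of all genes. High against low CHIR gave −0.28 (95% interval −1.01 to 0.46, adjusted p 0.665). The call of no against low CHIR was lost 4 times of 6 when a single library was removed (adjusted p up to 0.0927), with no CHIR replicate 2 or 3 or low CHIR replicate 1 or 2 removed.

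Bmp4 had 620, 457 and 617 normalized counts at no CHIR, 343, 191 and 305 at low CHIR, and 363, 212 and 5523 at high CHIR. The high group was split, with 2 libraries in the range of low CHIR and replicate 3 far above all others. High against low CHIR gave a log2 fold change of 1.47 (SE 0.94, adjusted p 0.381), and 0.03 (adjusted p 0.966) without replicate 3. High against no CHIR turned from 0.43 (adjusted p 0.78) to −1.01 (adjusted p 0.0267) when that library was left out.

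Bmp6, a ligand known for control of iron, was low and uneven. It had 77.5, 49.8 and 49.2 normalized counts at no CHIR, 3.94, 19.9 and 39.5 at low CHIR, and 35.9, 22.3 and 0.935 at high CHIR. All 3 libraries at no CHIR lay above the rest, but none of the contrasts passed the threshold (log2 fold change 1.86 with adjusted p 0.335 for no against low, −0.44 with 0.84 for high against low). Without high CHIR replicate 3 the latter was 0.86 (adjusted p 0.544).

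Among the receptors, only the type I receptor Bmpr1b was called across CHIR doses. It had 41.5, 29.3 and 27.9 normalized counts at no CHIR, 92.0, 95.9 and 67.1 at low CHIR, and 317, 261 and 994 at high CHIR, so that the 3 doses did not overlap. The rise from low to high CHIR was 6.17-fold (log2 fold change 2.36, SE 0.45, adjusted p 0.00771), and replicate 3 was again highest. Without it the log2 fold change was 1.76 (adjusted p 0.00278).

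The other type I receptor, Bmpr1a, had 964 to 1255 normalized counts over the 9 wild-type libraries, and its 3 groups overlapped. High against low CHIR differed by 0.07 on the log2 scale with a 95% interval from −0.25 to 0.38. The type II receptor Bmpr2 had 1445, 1161 and 1052 normalized counts at no CHIR, 1062, 720 and 1145 at low CHIR, and 793, 766 and 866 at high CHIR. All high libraries lay below all libraries with no CHIR, with a log2 fold change of −0.58 (SE 0.19, adjusted p 0.0517). This sits at the threshold: it was past it in 6 other fits, with adjusted p between 0.0222 (DESeq2) and 0.0465.

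Bmper showed the widest range of the 9 genes. It had 13352, 9246 and 12389 normalized counts at no CHIR, 4278, 5317 and 7229 at low CHIR, and 128, 90.7 and 451 at high CHIR. The 3 doses did not overlap. Bmper was 25.1-fold lower in high than in low CHIR (log2 fold change −4.97, SE 0.48, adjusted p 0.00017, and −5.66 without high CHIR replicate 3), and the step from low to no CHIR was 1.07 on the log2 scale (SE 0.48, adjusted p 0.223). Tmem100 followed the same order of doses, with 1484, 1712 and 1190 normalized counts at no CHIR, 566, 653 and 873 at low CHIR, and 78.4, 113 and 55.1 at high CHIR. It was 8.48-fold lower in high than in low CHIR (log2 fold change −3.11, SE 0.27, adjusted p 0.000101), while no against low CHIR stood at the threshold (1.07, SE 0.27, adjusted p 0.0505, and 0.0471 with edgeR and 0.00228 with DESeq2).

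Between the ends of the dose range, high against no CHIR called 5 of the 9 (Bmp2, Bmp7 and Bmpr1b higher, Bmper and Tmem100 lower), with 23.4% of all genes called. The largest was Bmper, 52.2-fold lower in high CHIR (log2 fold change −6.04, SE 0.48, adjusted p 2.99e-05, and −6.73 without high CHIR replicate 3), and Bmp7 was 22.3-fold higher (4.46, SE 0.33, adjusted p 1.99e-05). These 3 comparisons share libraries, so they are not separate evidence.

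**Figure D2:**
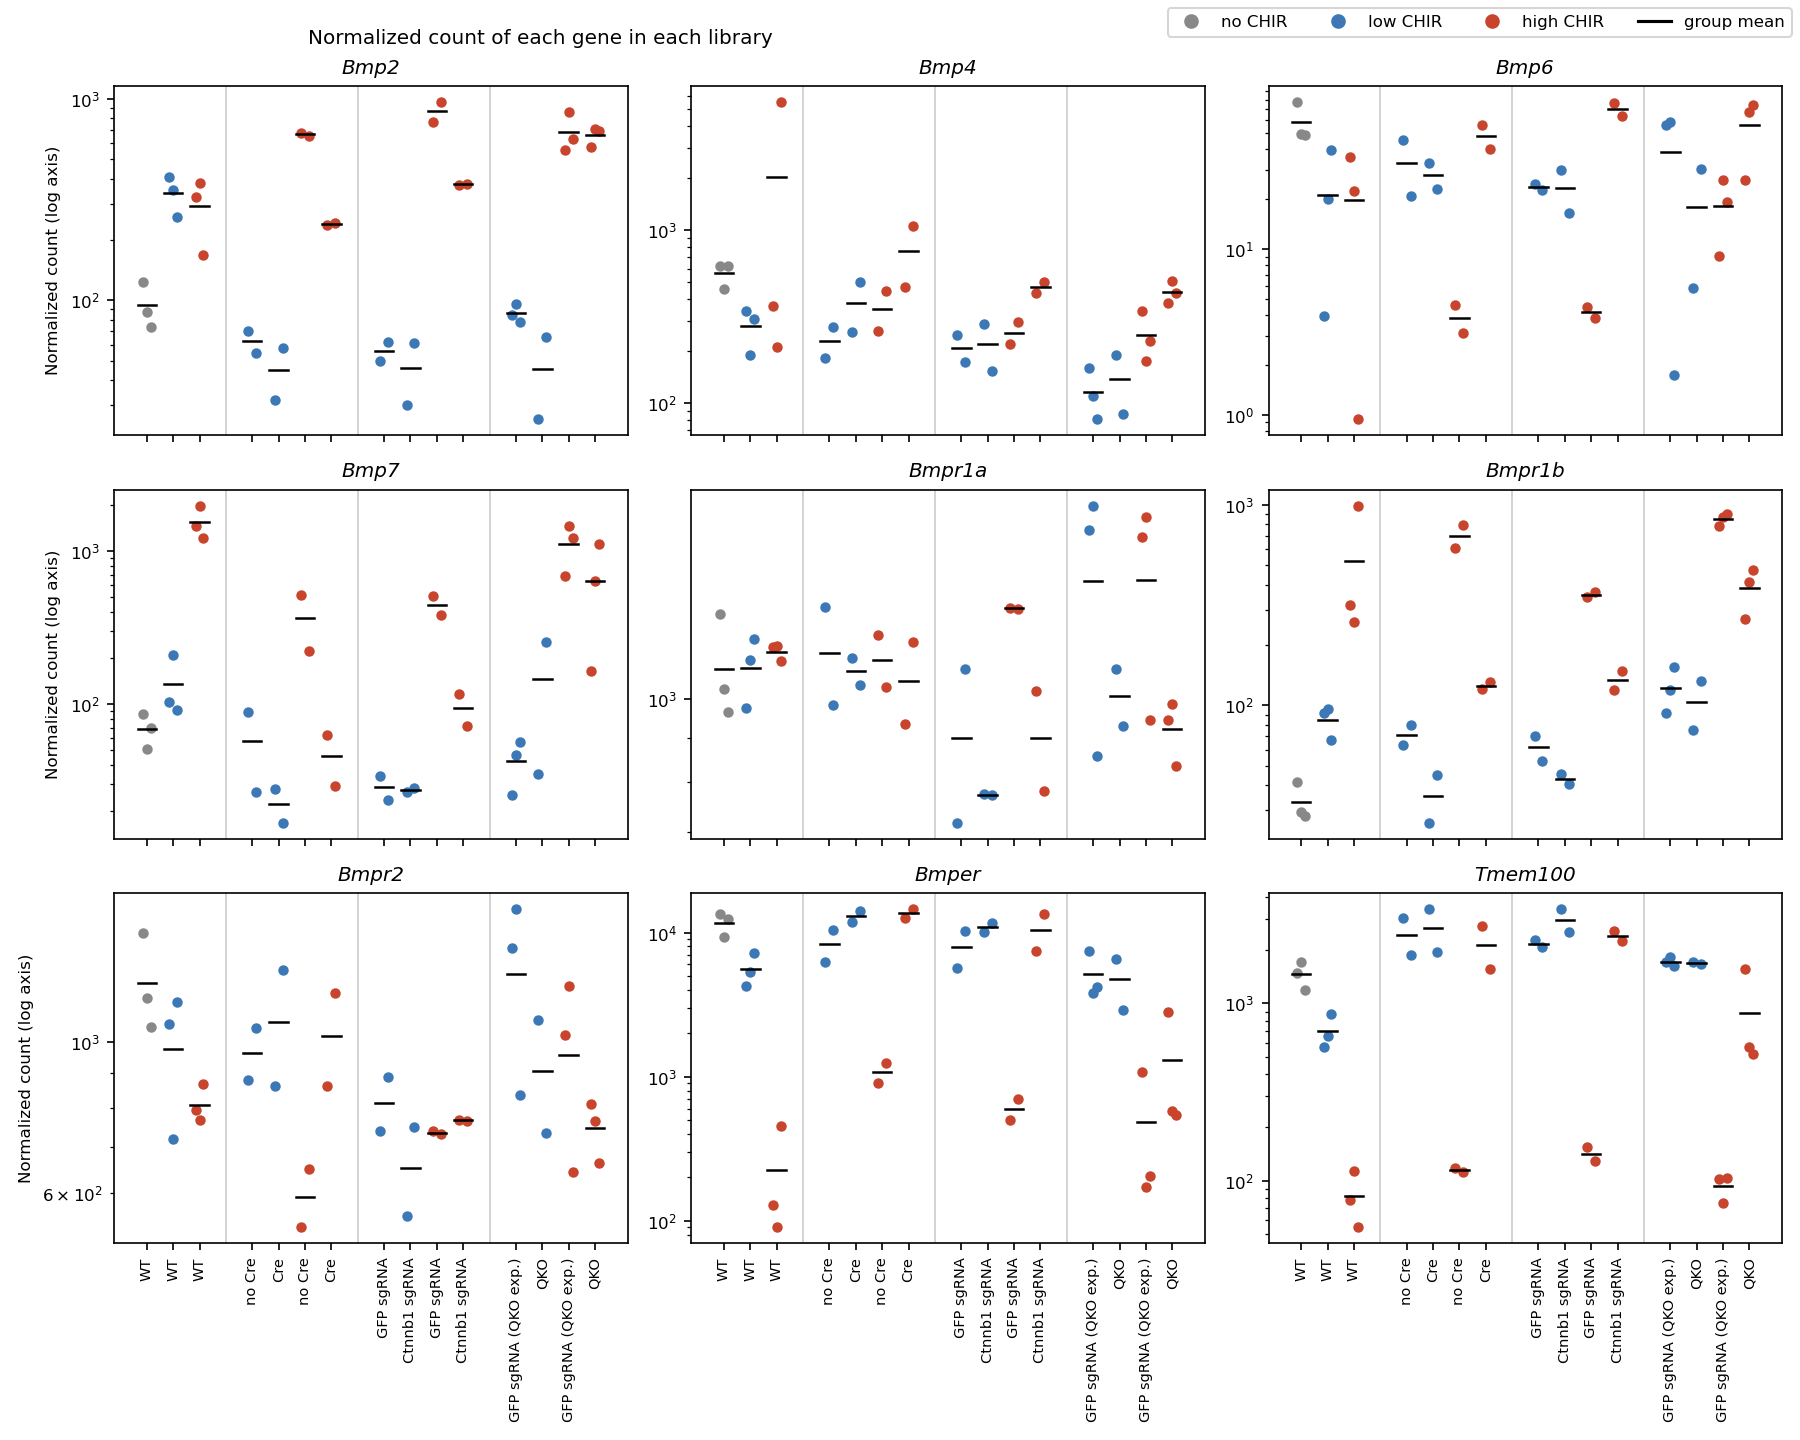
Normalized count (log axis) of each gene in each of the 36 libraries, with wild-type NPCs, the Cre experiment, the Cas9 experiment and the QKO experiment from left to right, 1 point per library coloured by CHIR dose and a line at each group's mean. Bmper and Tmem100 are low in the high CHIR controls and higher in the high CHIR knockouts, while Bmp7 and Bmpr1b show the opposite order in β-catenin removal.

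The question of the knockouts is whether these levels depend on β-catenin. In high CHIR, Cre removal of β-catenin left NPCs with more Bmper, Tmem100 and Bmp6, and with less Bmp2, Bmp7 and Bmpr1b, than the no Cre controls. These were 6 members called of 9, against 8.65% of the 16780 genes tested. Cas9 removal called 5 of 9, against 5.09% of genes: the same set without Bmp2. The 2 experiments used separate control libraries of the same table, and their fits share 1 estimate of the spread.

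Tmem100 had 118 and 112 normalized counts in no Cre and 2720 and 1562 in Cre libraries at high CHIR. In the Cas9 experiment the values were 156 and 129 with the GFP sgRNA and 2566 and 2255 with the Ctnnb1 sgRNA. Every removal library lay above every control, 18.6-fold on average with Cre (log2 fold change 4.15, SE 0.31, adjusted p 2.21e-06) and 16.9-fold with Cas9 (4.07, SE 0.31, adjusted p 5.34e-06). Bmper stood at 908 and 1234 normalized counts in no Cre and at 12654 and 14530 in Cre, and at 497 and 699 with the GFP sgRNA and 7455 and 13500 with the Ctnnb1 sgRNA. It too was above all controls in all removal libraries, 12.7-fold with Cre (3.68, SE 0.33, adjusted p 1.39e-05) and 17.5-fold with Cas9 (4.09, SE 0.33, adjusted p 1.08e-05).

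Markers of other cells moved in the same libraries. The 8 endothelial markers summed to 91.1 to 166 normalized counts in the high CHIR controls and to 284 to 533 in the removal libraries. Most of that sum was Plvap. All 8 were in the table, and Cdh5, Kdr and Tie1 were at 0 in the no Cre high CHIR libraries. Plvap averaged 55.3 and 93.6 normalized counts in the no Cre and GFP sgRNA controls and 329 and 503 with Cre and the Ctnnb1 sgRNA, and the other 7 had means of at most 15.2 in these 4 groups (Tek in the GFP sgRNA controls). The 8 stromal markers, all in the table, summed to 3648 to 12720 in the controls and 6467 to 18050 in the removal libraries, and the self-renewing markers to 2567 to 4182 and 9791 to 14040. Induced-cell markers were lower than in the controls in the same libraries, at 3113 to 7417 against 18750 to 24530, and so did ureteric markers (6 of 8 in the table), at 459 to 641 against 768 to 930. The part of any of these in the results of the 9 genes was not tested.

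Bmp6 had 4.60 and 3.11 normalized counts in no Cre and 56.5 and 40.1 in Cre, and 4.50 and 3.83 with the GFP sgRNA and 76.4 and 63.4 with the Ctnnb1 sgRNA. The groups did not overlap in either experiment. The difference was 12.5-fold (log2 fold change 3.34, SE 0.50, adjusted p 0.000785) and 16.8-fold (3.78, SE 0.50, adjusted p 0.000594), on control levels of only a few reads.

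Bmp7 went the other way, from 512 and 221 normalized counts in no Cre to 62.6 and 29.1 in Cre, and from 510 and 382 with the GFP sgRNA to 116 and 72.2 with the Ctnnb1 sgRNA. All removal libraries lay below all controls, 7.99-fold with Cre (log2 fold change −2.95, SE 0.57, adjusted p 0.00522) and 4.74-fold with Cas9 (−2.26, SE 0.57, adjusted p 0.0393). The Cas9 call was lost whichever of the 4 libraries was left out (adjusted p 0.0892 to 0.306), and the Cre call without no Cre replicate 1 (0.0713) or Cre replicate 2 (0.06).

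Bmp2 had 678 and 656 normalized counts in no Cre and 237 and 243 in Cre at high CHIR, and 766 and 965 with the GFP sgRNA against 371 and 379 with the Ctnnb1 sgRNA. Both removals were lower with no overlap, 2.78-fold with Cre (log2 fold change −1.47, SE 0.34, adjusted p 0.016). With Cas9 it was 2.31-fold and missed the threshold (−1.19, SE 0.34, adjusted p 0.065), although DESeq2 called it (0.0036). The Cre call was lost without any 1 of its 4 libraries (adjusted p 0.0721 to 0.0913). Bmp4 was at 260 and 445 in no Cre and 472 and 1053 in Cre, and at 219 and 293 with the GFP sgRNA and 434 and 504 with the Ctnnb1 sgRNA, and neither difference was called (log2 fold change 1.05, adjusted p 0.189, and 0.88, adjusted p 0.297).

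Bmpr1b had 608 and 795 normalized counts in no Cre and 120 and 131 in Cre, and 347 and 368 with the GFP sgRNA against 119 and 148 with the Ctnnb1 sgRNA. All removal libraries were below all controls, by 5.58-fold with Cre (log2 fold change −2.46, SE 0.31, adjusted p 0.000205) and 2.68-fold with Cas9 (−1.42, SE 0.31, adjusted p 0.0182). The Cas9 call was lost without any 1 of the 4 libraries (0.0854 to 0.157). Bmpr1a was not called, with 1187 and 1032 in no Cre and 934 and 1164 in Cre, and log2 fold changes of −0.09 with Cre and −0.51 with Cas9 (adjusted p 0.206). Bmpr2 was at 535 and 649 in no Cre and 861 and 1180 in Cre without overlap, but just missed the threshold (0.77, SE 0.23, adjusted p 0.0553), and with Cas9 its log2 fold change was 0.06 (95% interval −0.44 to 0.56).

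**Figure D3:**
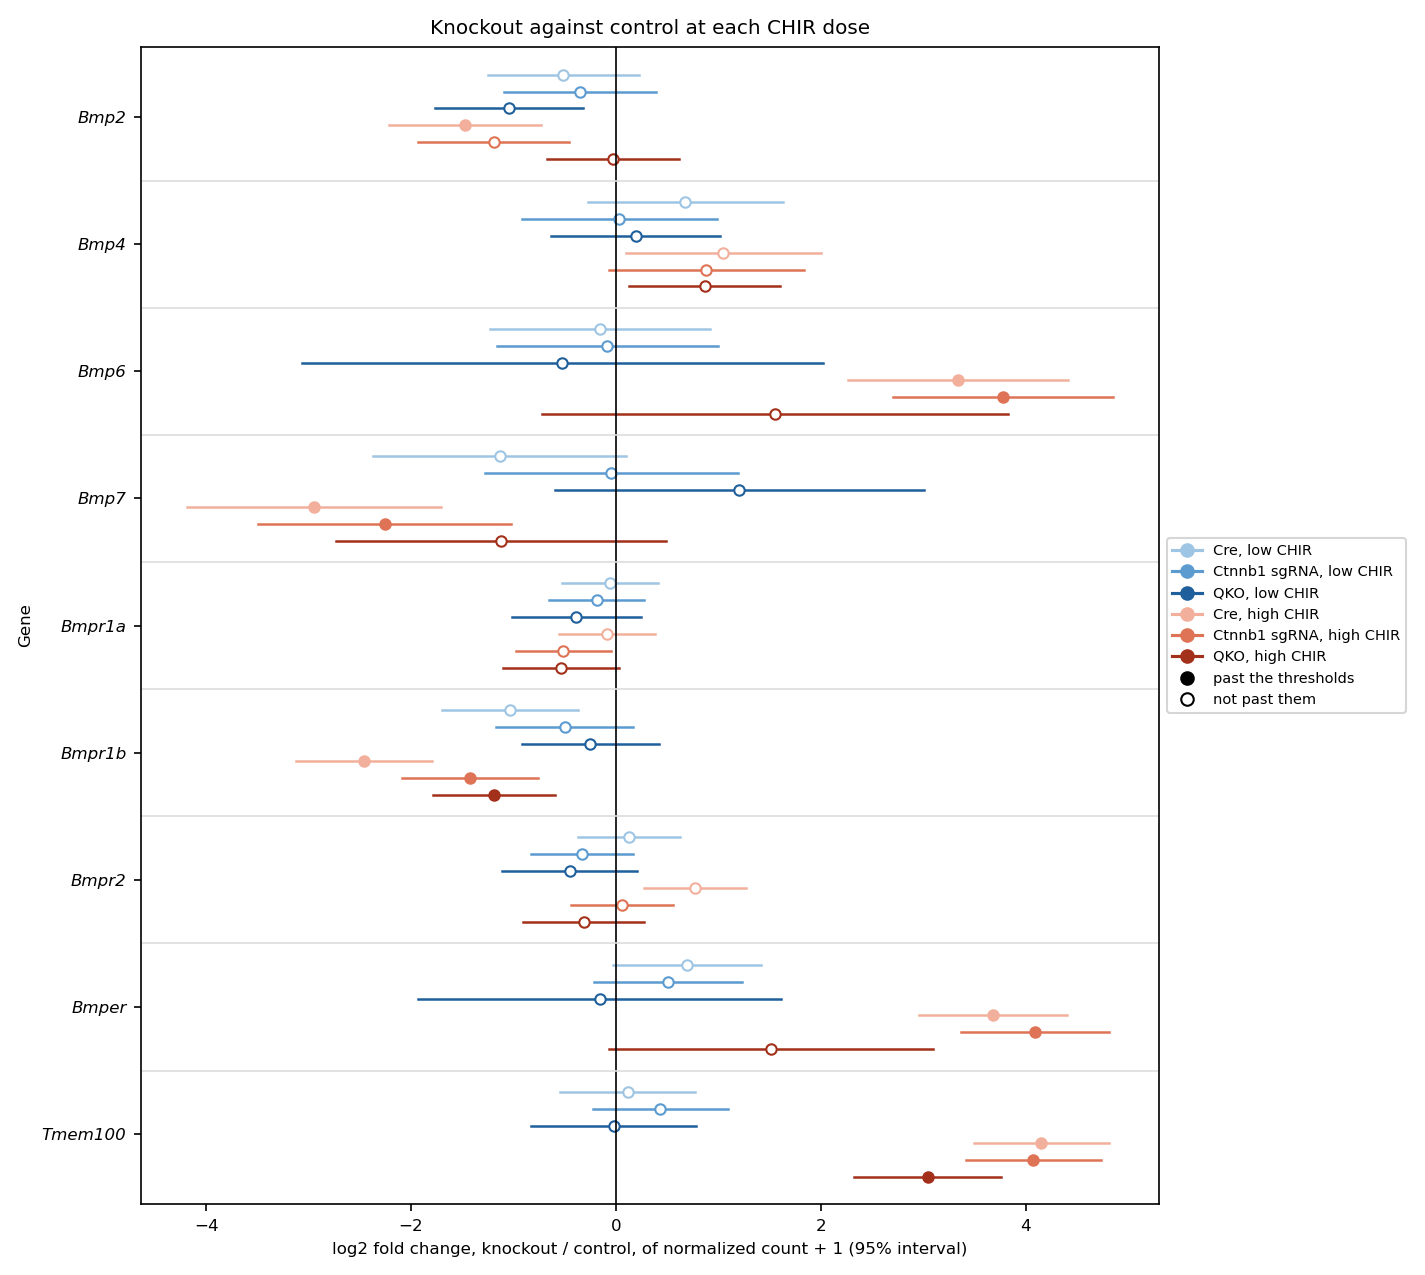
Log2 fold change of knockout against control for each gene at low CHIR (blue) and high CHIR (red), with 95% intervals from limma and filled points past both thresholds. At low CHIR no point is filled, and at high CHIR Tmem100 is past the thresholds in all 3 knockouts, at 4.15, 4.07 and 3.04.

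In low CHIR, limma called 0 of the 9 genes with Cre (0.328% of all genes called) and 0 with Cas9 (0.0536%). At an unadjusted p under 0.05 there was 1 with Cre, Bmpr1b, and 0 with Cas9. Over all 16780 genes, 1411 with Cre and 490 with Cas9 had such a p and a log2 change of 0.5 or more. Both edgeR and DESeq2 called 0 members with Cre and were not run for Cas9. Bmpr1b had 63.3 and 79.7 normalized counts in no Cre and 25.9 and 45.1 in Cre, without overlap (log2 fold change −1.03, SE 0.31, adjusted p 0.219). Tmem100 stood at 3016 and 1867 in no Cre and 3398 and 1943 in Cre, which overlap, with a log2 fold change of 0.11 (95% interval −0.55 to 0.77). Bmper had 6222 and 10344 in no Cre and 11850 and 14178 in Cre, all higher in Cre but short of the threshold (0.69, SE 0.33, adjusted p 0.488).

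The same libraries give the response to CHIR in controls and after β-catenin removal. That removal was partial: by the paper's staining, β-catenin was reduced but not absent in both experiments. High against low CHIR called 6 of 9 genes in no Cre (8.05% of all genes), and 6 with the GFP sgRNA (7.51%): Bmp2, Bmp7 and Bmpr1b rose, and Bmp6, Bmper and Tmem100 fell. With β-catenin removed, it called 2 of 9 in Cre (0.292%) and 2 with the Ctnnb1 sgRNA (0.763%), Bmp2 and Bmpr1b, and both rose.

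Bmp2 went from 70.0 and 54.9 normalized counts in low CHIR to 678 and 656 in high CHIR in no Cre, and from 49.7 and 61.7 to 766 and 965 with the GFP sgRNA. After removal it went from 32.1 and 57.9 to 237 and 243 in Cre, and from 30.2 and 61.5 to 371 and 379 with the Ctnnb1 sgRNA. High CHIR libraries were above low CHIR libraries in each of the 4. The rise was 10.7-fold in no Cre (log2 fold change 3.41, SE 0.34, adjusted p 3.02e-05) and 5.33-fold in Cre (2.45, SE 0.34, adjusted p 0.00625), and 15.5-fold and 8.18-fold with the GFP and Ctnnb1 sgRNA (3.93, adjusted p 1.13e-05, and 3.09, adjusted p 0.000525). The difference between the responses was −0.96 with Cre (95% interval −2.0 to 0.09, adjusted p 0.646) and −0.84 with Cas9 (−1.89 to 0.21, adjusted p 0.809), so a smaller response after removal was not called. The Cre response of Bmp2 was lost when only its 4 libraries were fitted (adjusted p 0.311), and without Cre low CHIR replicate 1 (0.0687), high CHIR replicate 1 (0.0551) or high CHIR replicate 2 (0.0799).

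Bmpr1b rose 9.81-fold in no Cre (log2 fold change 3.27, adjusted p 1.6e-05) and 3.54-fold in Cre (1.85, SE 0.31, adjusted p 0.0212), and 5.78-fold and 3.10-fold with the GFP and Ctnnb1 sgRNA (2.53, adjusted p 0.000189, and 1.60, SE 0.31, adjusted p 0.0296). The Cre call of Bmpr1b was lost in the same 4 fits (0.13 to 0.775) and the Ctnnb1 sgRNA call without any 1 of its libraries (0.12 to 0.274). The differences between responses, −1.43 and −0.92, had adjusted p of 0.222 and 0.733. Bmp7 rose in both controls (2.76, adjusted p 0.00812, and 3.91, adjusted p 0.000774), the first lost without no Cre low CHIR replicate 2 (0.0599) or high CHIR replicate 1 (0.105), while after removal its log2 fold changes were 0.95 (95% interval −0.29 to 2.19) and 1.70 (0.46 to 2.94), neither of them called. The differences for Bmp7 were −1.81 (adjusted p 0.561) and −2.21 (0.531), and were not called.

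For Bmper, Tmem100 and Bmp6 the difference between the responses was itself called, in the Cre and in the Cas9 experiment. These were 3 of 9 members in each, against 0.995% and 0.518% of all genes. Bmper fell 7.74-fold with CHIR in no Cre (log2 fold change −2.92, adjusted p 8.92e-05) and 13.3-fold with the GFP sgRNA (−3.69, adjusted p 1.36e-05), and its log2 fold changes after removal were 0.07 (95% interval −0.66 to 0.79) and −0.11 (−0.83 to 0.61). The differences were 2.99 (SE 0.47, adjusted p 0.007) and 3.58 (SE 0.47, adjusted p 0.00353). Tmem100 fell 21.2-fold and 15.2-fold in the controls (−4.36, adjusted p 1.39e-06, and −3.93, adjusted p 4.47e-06), its log2 fold changes after removal were −0.32 and −0.28, and the differences were 4.04 (SE 0.43, adjusted p 0.000343) and 3.64 (SE 0.43, adjusted p 0.0015).

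Bmp6 fell from 45.5 and 21.1 to 4.60 and 3.11 normalized counts in no Cre (log2 fold change −2.74, adjusted p 0.00337) and from 24.8 and 22.7 to 4.50 and 3.83 with the GFP sgRNA (−2.26, adjusted p 0.0134). After removal it was at 33.1 and 23.2 in low and 56.5 and 40.1 in high CHIR with Cre, and at 30.2 and 16.53, then 76.4 and 63.4, with the Ctnnb1 sgRNA, higher in high CHIR in both but not called (0.76, adjusted p 1, and 1.59, adjusted p 0.266). The differences between responses were 3.50 (SE 0.71, adjusted p 0.0299) and 3.86 (SE 0.71, adjusted p 0.0255). In limma the first was not called with no filter on low values (adjusted p 0.0573) or with only the groups compared (0.196). With single libraries removed, each call was lost 7 times of 8 (adjusted p up to 0.133 and 0.145), and it was kept only without no Cre low CHIR replicate 2 and without Ctnnb1 sgRNA low CHIR replicate 1. Both control falls were lost when only the groups compared were fitted (adjusted p 0.137 and 0.0675), and that of the GFP sgRNA also without any 1 of its 4 libraries (0.0632 to 0.105).

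**Figure D4:**
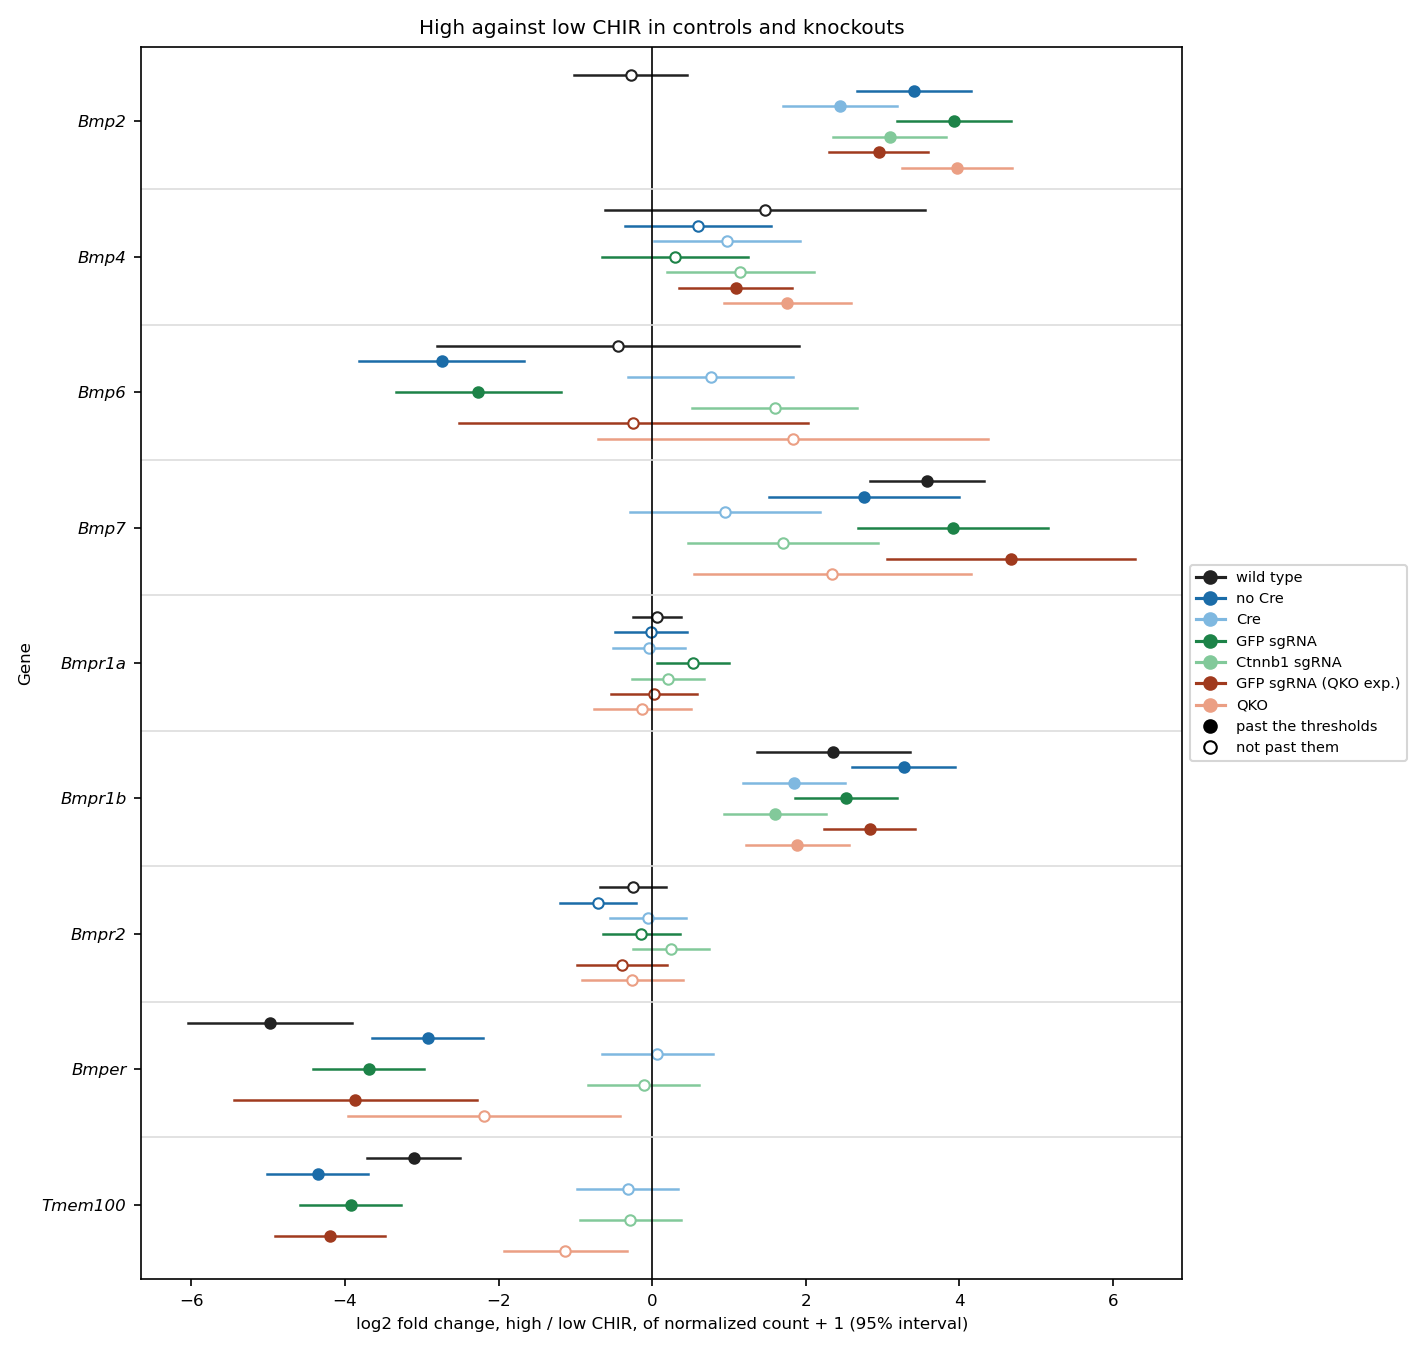
Log2 fold change of high against low CHIR for each gene in wild-type NPCs and in each control (darker) and knockout (lighter) group, with 95% intervals from limma and filled points past both thresholds. Bmper and Tmem100 are far below 0 in all controls (−2.92 to −4.97 and −3.11 to −4.36) and near 0 after β-catenin removal, while Bmp2 is above 0 in all groups but wild-type NPCs.

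Levels are comparable only within a table. With that limit, low CHIR Bmp2 was at 259 to 409 normalized counts in wild-type NPCs and at 49.7 to 95.7 in the low CHIR controls of the 3 knockout experiments. Unlike the wild-type cells, those controls had been transfected, kept in low CHIR for the knockout period and sorted. The Bmp2 response to high CHIR was −0.28 on the log2 scale in wild-type NPCs and 2.95 to 3.93 in the controls, a difference that was not tested.

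Removal of the 4 Tcf/Lef factors asks whether β-catenin acts through them. Of the targeted transcripts, Tcf7 differed most clearly, with an average of 139 normalized counts in QKO and 446 in controls at high CHIR. Tcf7l2 averaged 1365 and 1749. By protein, the paper reports a larger loss of Tcf7l1, Tcf7l2 and Lef1 than of Tcf7 with single guides. It also predicts Tcf7 to be a Wnt target, so editing and a changed Wnt response cannot be told apart by its transcript. In high CHIR, QKO called 2 of the 9 members, against 2.54% of the 15878 genes tested: Tmem100 was higher and Bmpr1b was lower. In low CHIR limma called 0 of 9 (0.0063% of all genes), with 1 at an unadjusted p under 0.05, Bmp2, and 0 by edgeR and by DESeq2. Bmp2 had 84.4, 95.7 and 77.8 normalized counts in low CHIR controls and 25.6 and 65.5 in QKO, without overlap (log2 fold change −1.04, SE 0.33, adjusted p 0.904). Replicate numbers pair the libraries of this experiment, but the main fit leaves the pairs out. A fit with the pairs as a block is given where it changes a call.

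Tmem100 had 102, 74.8 and 104 normalized counts in high CHIR controls and 1553, 571 and 516 in QKO. All QKO libraries lay above all controls, and replicate 1 was highest. The difference was 9.39-fold (log2 fold change 3.04, SE 0.33, adjusted p 0.000863), and 2.54 on the log2 scale (adjusted p 0.000109) without QKO replicate 1. Bmper had 1073, 171 and 204 in controls and 2813, 576 and 542 in QKO. Each QKO library was above the control of its own number, but replicate 1 of the controls was above 2 QKO libraries. The log2 fold change of Bmper was 1.51 (SE 0.72, adjusted p 0.376), which the fit with the replicate block called (1.51, adjusted p 0.00985). Without QKO replicate 1 it was 0.74 (adjusted p 0.748), and without control replicate 1 it was 2.35 (adjusted p 0.0923). Summed stromal markers were also higher in QKO in each pair, at 7335, 2399 and 595 normalized counts against 3131, 636 and 257. So was the sum of endothelial markers, at 316, 520 and 543 against 204, 353 and 276. Of the 4 endothelial markers tested, however, 1 was called higher, and their median log2 fold change was −0.46. The part of these markers was not tested.

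Bmpr1b had 790, 874 and 905 normalized counts in high CHIR controls and 269, 411 and 475 in QKO, with no overlap. It was 2.22-fold lower in QKO (log2 fold change −1.19, SE 0.27, adjusted p 0.0425). That call was lost in edgeR (0.135), which left out control replicate 2, and without any 1 of the 6 libraries (0.0555 to 0.182). Bmp7 was at 684, 1452 and 1209 in controls and at 165, 635 and 1102 in QKO, which overlap (−1.12, SE 0.74, adjusted p 0.536). It was lower in QKO in all 3 pairs, and the log2 fold change was −0.35 (adjusted p 0.898) without QKO replicate 1. Bmp2 was at 555, 860 and 628 in controls and at 575, 709 and 694 in QKO, a log2 fold change of −0.03 with a 95% interval from −0.67 to 0.62.

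Bmp4 and Bmp6 were higher in QKO by their means, but not called. Bmp4 had 342, 176 and 228 normalized counts in high CHIR controls and 379, 509 and 432 in QKO, without overlap (log2 fold change 0.87, SE 0.34, adjusted p 0.255). Bmp6 had 9.07, 26.3 and 19.1 in controls and 26.1, 67.5 and 74.2 in QKO, which overlap by 1 library (1.55, SE 1.04, adjusted p 0.542). Bmpr1a, at 1544, 1628 and 945 in controls and 944, 985 and 835 in QKO (−0.54, adjusted p 0.378), and Bmpr2 (−0.32, adjusted p 0.642) were not called either.

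The response to CHIR in the QKO experiment called 6 of 9 members in the GFP sgRNA controls (14.9% of all genes) and 3 of 9 in QKO (2.54%). In controls Bmp2, Bmp4, Bmp7 and Bmpr1b rose, and Bmper and Tmem100 fell. In QKO Bmp2, Bmp4 and Bmpr1b rose, and with the replicate block the count was 5, with Bmp7 (log2 fold change 2.18, adjusted p 0.00987) and Bmper (−1.85, adjusted p 0.00829) added.

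Bmp2 rose from 84.4, 95.7 and 77.8 normalized counts to 555, 860 and 628 in controls, and from 25.6 and 65.5 to 575, 709 and 694 in QKO. The rise was 7.92-fold (log2 fold change 2.95, SE 0.29, adjusted p 4.92e-05) and 14.5-fold (3.97, SE 0.33, adjusted p 8.75e-05). The difference between the responses, 1.02 (95% interval 0.05 to 1.98, adjusted p 0.942), was not called. Bmpr1b rose from 91.7, 119 and 155 to 790, 874 and 905 in controls (2.83, adjusted p 3.78e-05), and in QKO from 75.5 and 133 to 269, 411 and 475 (1.89, SE 0.30, adjusted p 0.00757, and 0.0877 without QKO low CHIR replicate 1).

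Bmp4 rose from 159, 111 and 80.4 normalized counts to 342, 176 and 228 in controls (log2 fold change 1.09, SE 0.34, adjusted p 0.0492) and from 189 and 87.0 to 379, 509 and 432 in QKO (1.76, SE 0.38, adjusted p 0.0338). High CHIR libraries lay above low CHIR libraries in both. Both calls stood close to the threshold, and each was lost in edgeR (0.0564 and 0.059). The control call was also lost without low CHIR replicate 2 or 3 or high CHIR replicate 1 or 3 (up to 0.154), and the QKO call without low CHIR replicate 3 or any high CHIR library (up to 0.259). Bmp7 rose 26.1-fold in controls, from 25.7, 46.4 and 56.2 (4.67, SE 0.74, adjusted p 0.00119). In QKO low CHIR it had 34.9 and 256, so that replicate 3 exceeded replicate 1 of QKO in high CHIR (165), and the log2 fold change was 2.35 (SE 0.83, adjusted p 0.194), and 3.12 (adjusted p 0.0624) without the latter.

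Tmem100 fell from 1701, 1825 and 1616 normalized counts to 102, 74.8 and 104 in controls, 18.3-fold (log2 fold change −4.19, SE 0.33, adjusted p 9.04e-06). In QKO it had 1714 and 1663 in low CHIR and 1553, 571 and 516 in high CHIR, lower in every library but with replicate 1 close to low CHIR (−1.13, SE 0.37, adjusted p 0.151). Without QKO high CHIR replicate 1 that fall was called (−1.64, adjusted p 0.00138). The difference between the responses of Tmem100 was 3.06 (SE 0.49, adjusted p 0.0444), the only member called, 1 of 9 against 0.126% of all genes. edgeR gave 3.16 with an adjusted p of 0.164, and leaving out 1 library gave 0.00363 (without QKO high CHIR replicate 1) to 0.279 (without QKO low CHIR replicate 1). The self-renewing markers summed to 1015 to 2404 in the high CHIR controls and 3606 to 4822 in QKO, and the induced markers to 21540 to 37880 and 10470 to 20050, the lowest being replicate 1; their part was not tested.

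Bmper fell from 7396, 3800 and 4157 normalized counts to 1073, 171 and 204 in the controls, highest in replicate 1 at both doses. The fall was 10.6-fold (log2 fold change −3.86, SE 0.72, adjusted p 0.00353, and 0.0647 with edgeR). In QKO it had 6573 and 2916 in low CHIR and 2813, 576 and 542 in high CHIR, which do not overlap (−2.19, SE 0.81, adjusted p 0.216, and −2.97 with 0.0669 without QKO high CHIR replicate 1). Bmp6 was uneven in the low CHIR controls, at 56.3, 58.2 and 1.73, and neither of its CHIR responses was called here (−0.25, adjusted p 0.912, in controls).

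The rest of the pathway was read from lists set beside the members. In wild-type high against low CHIR, 10.4% of all genes were called. Of 9 other ligands 1 passed the filter in wild-type NPCs, Bmp3, which fell in high CHIR (log2 fold change −3.34, adjusted p 0.00536). Of 8 other receptors and co-receptors tested, 1 rose and 1 fell: the type II receptor Acvr2b (1.27, adjusted p 0.00341) and the co-receptor Rgma (−1.57, adjusted p 0.039), with a list median of −0.12 against 0.01 over all genes. Acvr2b was also higher in high CHIR in no Cre (1.04, adjusted p 0.0288), the GFP sgRNA controls (1.34, adjusted p 0.00704) and the controls of QKO (1.34, adjusted p 0.00289), and was lower after Cre removal in high CHIR (−1.23, adjusted p 0.0105). Rgma was higher after Cre removal (1.01, adjusted p 0.0248).

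Of 14 antagonists and other modulators tested in wild-type NPCs, 2 rose and 2 fell in high CHIR, against 10.4% of all genes called. Kcp, a chordin-like secreted protein, rose from 171, 138 and 63.5 to 719, 512 and 577 normalized counts (log2 fold change 2.37, adjusted p 0.00261), and Fst, the activin antagonist follistatin, from at most 3.80 to 10.1, 11.2 and 55.1 (3.54, adjusted p 0.029). Sostdc1, a secreted antagonist of BMP and Wnt ligands, fell from 121, 33.2 and 35.9 to 4.48, 8.38 and 0.935 (−3.53, adjusted p 0.00678), and Nbl1, a secreted BMP antagonist, fell from 82.8, 81.7 and 103 to 31.4, 19.5 and 63.6 (−1.36, adjusted p 0.0488). After β-catenin removal in high CHIR, 1 of 12 rose and 1 fell with Cre (Fstl1 by 1.97, adjusted p 5.18e-05, and Chrdl2 by −3.37, adjusted p 0.0143) and 1 rose with Cas9 (Fstl1, 1.33, adjusted p 0.00223), genes named here for being the ones called. Over all genes, 8.65% were called with Cre and 5.09% with Cas9. Of 8 Smads and regulators of them, limma called 0 in wild-type high against low CHIR, 0 of them at an unadjusted p under 0.05, with a median of −0.08. Lists other than the members were not read with edgeR or DESeq2.

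Of 10 known BMP-responsive genes, 4 rose and 2 fell in wild-type high CHIR, where 10.4% of all genes were called, with a median of 0.05 against 0.01 over all genes. Msx1, a homeobox gene, had 5.26, 9.49 and 9.58 normalized counts in low CHIR and 978, 403 and 18058 in high CHIR (log2 fold change 7.77, SE 1.13, adjusted p 0.00185), and its homologue Msx2 rose by 2.08 (adjusted p 0.0289), in both cases with replicate 3 highest. Bambi, a decoy receptor, rose from 382, 326 and 281 to 3178, 2870 and 2133 (3.03, adjusted p 0.000153). Id4, a dominant-negative helix-loop-helix factor, rose from 407, 374 and 250 to 2949, 3569 and 475 (2.34, adjusted p 0.0381), lowest in replicate 3. The 2 that fell, Id2 (−0.88) and Atoh8 (−1.38), are named because they complete the count.

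After β-catenin removal in high CHIR, 0 of 9 BMP-responsive genes tested rose and 2 fell in each experiment: Id4 by −2.54 (adjusted p 0.00596) and Id2 by −1.32 (adjusted p 0.00183) with Cre, and by −2.30 (adjusted p 0.0192) and −1.07 (adjusted p 0.0132) with Cas9. Over all genes, 8.65% were called there with Cre and 5.09% with Cas9. In QKO high CHIR 1 of 10 fell, Id2 (−0.69, adjusted p 0.0133), against 2.54% of all genes called. In low CHIR limma called 0 genes of these lists with Cre, with Cas9 and in QKO, where 4 of 38, 2 of 38 and 0 of 35 had an unadjusted p under 0.05. The paper predicts Id2 to be a direct Wnt target as well, so a BMP and a Wnt response cannot be told apart by its transcript. The lists were drawn up from general knowledge of the pathway with earlier results of these data known.

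Genes with the most similar pattern were found by the mean absolute difference between centred log2 group means, over 15 groups and 11704 genes. For Bmper, whose centred means span 6.04 on the log2 scale, the closest were AW551984 (0.296), Cdo1 (0.323) and Cftr (0.338), against a median of 1.64 over all genes. For Tmem100 they were Pcdh1 (0.234), Fat3 (0.275) and Cd55 (0.297), against 1.56. For Bmp7 they were Wfdc2 (0.267), Ovol1 (0.285) and Igsf1 (0.337), against 1.54, and for Bmpr1b Arl4c (0.218), Frem2 (0.263) and Lsr (0.280), against 1.21. Bmp2 was less closely matched, by Oxtr (0.447), Tenm4 (0.460) and Cmip (0.464), against 1.47, and so was Bmp6, by Atp2b4 (0.443), Plxnd1 (0.485) and Cdc42ep1 (0.525), against 0.932. Bmp4, Bmpr1a and Bmpr2 spanned less than 2 on the log2 scale and were not matched. The tables were centred separately, so these are descriptions of shape only.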

How the data were processed

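RNA was sequenced from 36 libraries of cultured mouse NPCs. The authors made SMARTer cDNA, sequenced paired-end reads of 150 bases, aligned them with STAR to the combined GRCm38 and GRCh38 genomes and counted uniquely aligned reads per gene with featureCounts. The signal they deposited in 3 tables is a normalized count, the reads of a gene divided by 1 DESeq2 size factor per library. The comparison files that they also deposited hold their own fold changes and p-values and were not used. Whole reads were recovered from the smallest step of each library, and, leaving out very high counts, 100% of values were whole within 0.01 of a read. In 3 libraries 1 read was worth about 1 count, and these were left out of count tests. They were GFP sgRNA low CHIR replicate 1, Cre high CHIR replicate 1, and replicate 2 of the high CHIR controls of QKO. The edgeR and DESeq2 results that use those QKO controls therefore rest on fewer libraries than limma's.

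Here, log2(normalized count + 1) was fitted with limma 3.58.1 in R 4.3.3, with a variance trend, 1 fit per table. Genes whose mean was below 10 were dropped, and p-values were Benjamini-Hochberg adjusted over all that remained. Calls needed an adjusted p below 0.05 together with a log2 change of 0.5 or more either way. This scale understates the change of low genes, and exact permutation of such small groups could not pass the threshold, so limma's moderated test was used. On recovered reads, edgeR 4.0.16 and DESeq2 1.42.0 were alternatives. Where limma called 1808 genes (wild-type NPCs, high against low dose), they called 1845 and 2610. The code was tested on simulated tables with planted changes. Fold changes without "log2" are ratios of group means. Levels between genes were divided by the exon length of GENCODE vM21.

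All 9 members were named throughout, and of other pathway lists those called in wild-type high against low CHIR, at most 4 per list by size of change; the few others named were chosen after their values were seen. The members and lists were chosen with earlier results of these data known. Deviations from group means were correlated across genes between libraries that share a replicate number. In the QKO table all same-number correlations were between 0.214 and 0.637. Headers of the deposited comparisons give each number a shared date, so these libraries were taken to be paired. The main fits and the figures still leave the pairs out, and a fit with the pairs as a block was an alternative. In wild-type NPCs the correlations were −0.0156 to 0.272, and those libraries were not taken to be paired. No replicate differed from another by less than sampling noise.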

Additional observations from a re-analysis of the deposited data

Results flagged for a closer look

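The CHIR response of 3 genes differed between β-catenin removal and its controls by a test of the difference itself. With Cre the difference was 3.50 for Bmp6, 2.99 for Bmper and 4.04 for Tmem100 on the log2 scale, and with Cas9 it was 3.86, 3.58 and 3.64. Those of Bmp6 rest on few reads in the high CHIR controls, and its Cre call was lost with only the groups compared (limma, adjusted p 0.196). In QKO the difference was called for Tmem100 only, at 3.06.

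For 3 BMP-responsive genes, high CHIR libraries lay all above low CHIR libraries in 1 set of control or wild-type cells and all below in another, a contrast that was not tested and that partly crosses separately normalized tables. Id2 was at −0.88 in wild-type NPCs, and at 0.95 in no Cre and 1.01 in GFP sgRNA controls. The paper describes Id2 as induced in high CHIR, which the wild-type value does not show. Bambi was at 3.03 in wild-type NPCs and 0.34 in GFP sgRNA controls, but at −0.45 in no Cre. Atoh8 was at −1.38 in wild-type NPCs and 1.28 in GFP sgRNA controls.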

How the results depend on the processing

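Of 18 comparisons, the count of members called moved by more than 1.5 times in these. In wild-type no against low CHIR it was 1, 5 when only those groups were fitted, 2 with edgeR, 2 with DESeq2, and 0 to 1 when 1 library was left out. For the CHIR response it was 2 with Cre, 0 when only those groups were fitted, and 0 to 2 with 1 library left out, and 2 with the Ctnnb1 sgRNA, 1 when only those groups were fitted, and 1 in each fit with 1 library left out. Cas9 removal in high CHIR went from 5 to 3 in each fit with 1 library left out. QKO in high CHIR went from 2 to 1 with edgeR and in each fit with 1 library left out. The difference in CHIR response between QKO and controls went from 1 to 0 with edgeR, and was 0 to 1 with 1 library left out. With the replicate block, the CHIR response of QKO went from 3 to 5. In the β-catenin table same-number libraries correlated at 0.334 to 0.518 in the Cre experiment and 0.116 to 0.491 in the Cas9 experiment, but with 2 numbers each, and no label for what they share, they were not treated as paired. There the block gave 7 in place of 6 for Cre removal in high CHIR, 6 in place of 5 for Cas9 removal and 7 in place of 6 for no Cre, adding Bmpr2 (adjusted p 0.00813), Bmp2 (0.0299) and Bmpr2 (0.0155) in turn. It gave 6 in place of 5 for wild-type high against no CHIR and 3 in place of 2 for QKO in high CHIR.

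One sign turned with a call: Bmp4 in wild-type high against no CHIR was −1.01 without high CHIR replicate 3, and −1.01 to 1.34 over all fits with 1 library left out. Of 1926 alternative values of single members, 76 had the other sign, called in neither fit. The cause of these shifts was not tested. Where leaving out 1 library left a group of 1, that library was assumed to vary like the others. edgeR and DESeq2 were not run where excluded libraries left 1 library in a group: Cas9 removal in low CHIR, Cre removal in high CHIR, the CHIR responses of GFP sgRNA and Cre, and the differences in response for Cre and Cas9. Depth limits Bmp6, with under 5 normalized counts in the high CHIR controls of β-catenin removal.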
